A study of Mus musculus with 16 samples.

Results

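The 34 genes described here encode the assembly machinery of the peroxisome and the proteins with which it oxidises fatty acids. They were chosen by symbol: 13 peroxins (the Pex genes), 16 enzymes, 3 transporters of the Abcd family and 2 further membrane proteins, Pxmp2 and Pxmp4. All 34 were measured, each by 1 probe set, among 19938 genes named on the array. RNA came from livers of 16 male mice aged 4 months, 1 Affymetrix Mouse Gene 1.0 ST array per liver, in 4 groups of 4. Heterozygous mice were Mut +/- and mutants Mut -/-, and all of them, controls included, carried the transgene TgINS-MCK-Mut, which expresses methylmalonyl-CoA mutase from the muscle creatine kinase promoter and so mainly in muscle. Mut, now named Mmut, encodes the mitochondrial enzyme that converts methylmalonyl-CoA to succinyl-CoA, and its loss causes methylmalonic acidemia. Each genotype was sampled on a normal diet without a fast, called unfasted here, and after a fast of 12 hours in heterozygotes and of 8 to 12 hours in mutants. Fast length and genotype therefore cannot be told apart among the fasted groups.

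Peroxisomes shorten very-long-chain, branched-chain and dicarboxylic fatty acids and bile acid precursors that mitochondria handle poorly. Their first oxidation step passes electrons to oxygen and makes hydrogen peroxide, which catalase removes. Peroxins insert membrane proteins, import enzymes from the cytosol and divide the organelle. In rodent liver many peroxisomal enzymes are under the control of PPAR-alpha, a nuclear receptor that is activated by fatty acids in the fast.

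Values are log2 signals from the robust multi-array average (RMA), and a difference of 1 is a doubling. A gene was called where limma gave an adjusted p under 0.05 over all 19938 genes, in 1 fit of the 16 arrays. Errors after ± are standard errors of that fit for differences and standard deviations (SD) for group means, with 4 arrays per group. In whole liver, fewer cells of a type and less RNA per cell cannot be told apart. Mmut lay between 9.66 and 10.10 on the 8 heterozygous arrays and between 7.85 and 8.33 on the 8 mutant ones. Correlations between arrays of 1 group ran from 0.986 to 0.998. Unfasted mutant replicate 1 stood apart by pancreatic acinar transcripts: Cpa1 read 12.29 there and 6.84 to 7.22 elsewhere. Fasted mutant replicate 1 had the highest summed signals of adipocyte markers (9.41 against 8.72 to 8.92 on the others) and of kidney tubule markers (9.001 against 8.59 to 8.80), and it held the lowest reading of its group for 20 of the 34 members. Hepatocyte markers were bright on all arrays, and none of the 4 measured was called in any comparison. Of these, Cps1 read 12.09 on unfasted mutant replicate 3 and 12.88 to 13.49 on the other arrays. Its difference between unfasted genotypes was -0.39 ± 0.17. Unfasted mutant replicate 3 held the lowest reading of its group for 15 of the 34 members.

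Members were called in each of the 4 pairwise comparisons: Ehhadh in all 4, Abcd2 in both comparisons of genotype, and others in 1 or 2. Unfasted mutants differed from unfasted heterozygotes in 7 of 34 members (2 higher, 5 lower), against 7.94% of all genes called (4.25% higher, 3.69% lower). In the fasted state 8 members differed between genotypes (4 higher, 4 lower), against 13.6% of all genes (8.62% higher, 5.01% lower). Fasting changed 3 members in heterozygotes (2 higher, 1 lower), against 1.57% (0.732% higher, 0.838% lower), and 6 in mutants (all higher), against 3.35% (2.33% higher). All 34 members lie above the median brightness of the array, and bright genes were called more often. In fits of the 9969 brighter genes alone the backgrounds were 15.8%, 22.5%, 3.98% and 8.7% in the same order, and 8, 11, 3 and 7 members were called. No member was called in the interaction of genotype and fasting by limma, where 0.01% of all genes were called and 5 members had an unadjusted p under 0.05.

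**Figure D1:**
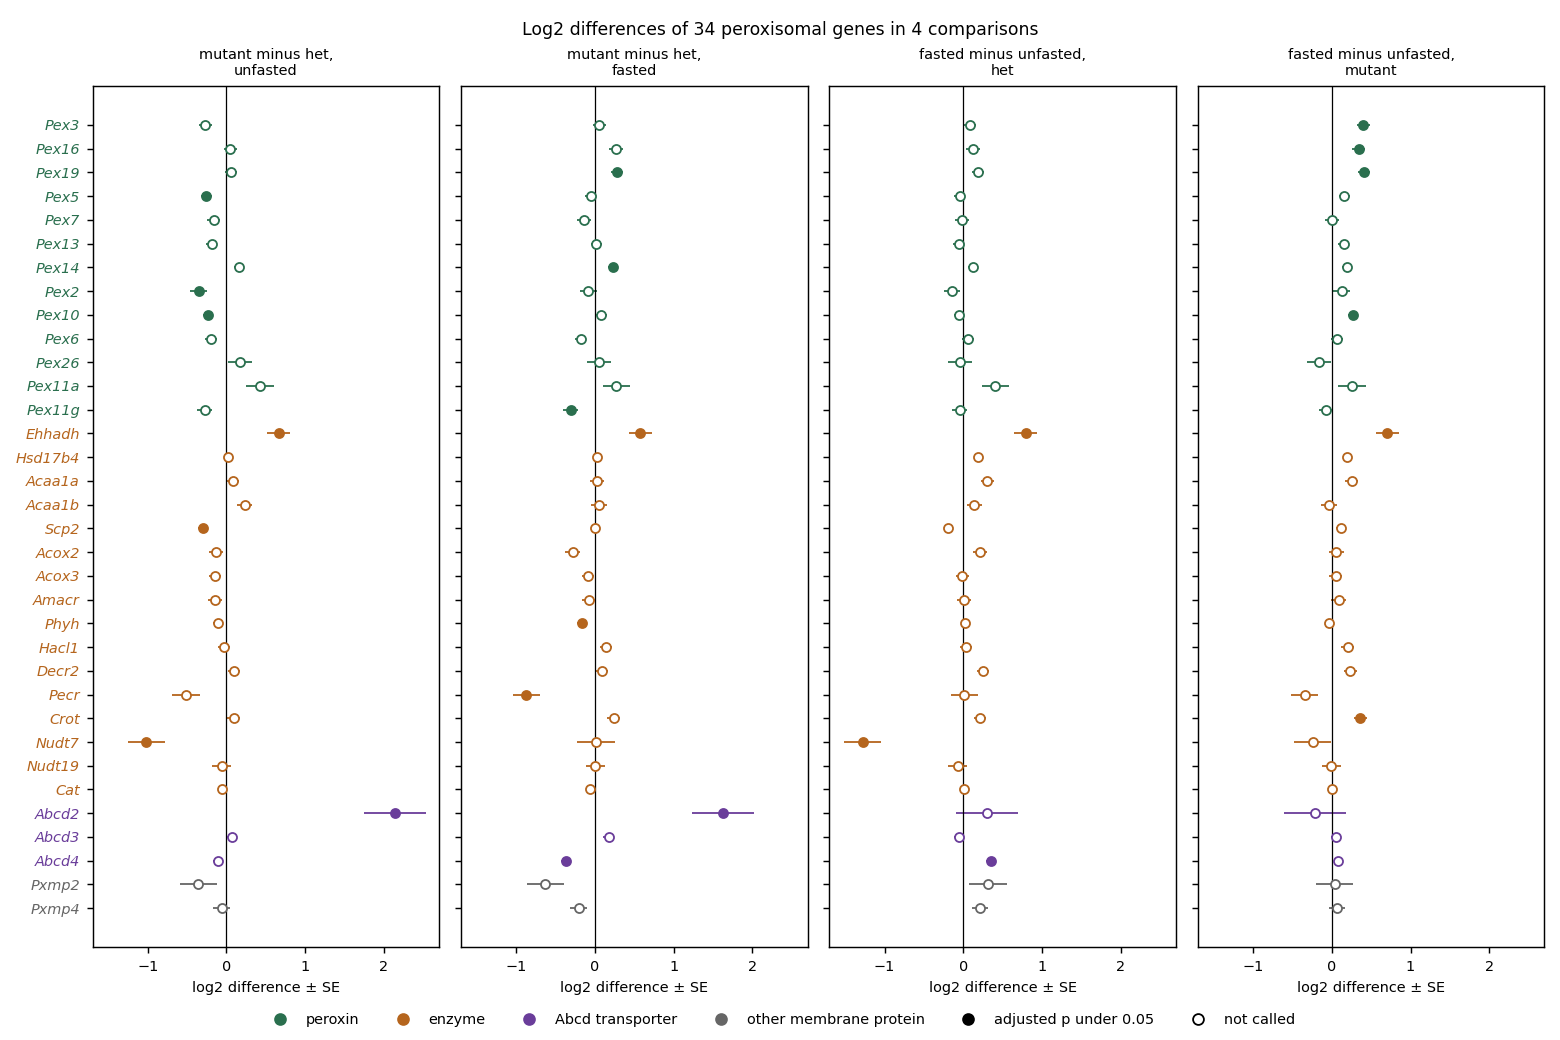
Log2 difference ± SE of each of the 34 genes (rows, coloured by class) in the 4 pairwise comparisons (panels); filled points have an adjusted p under 0.05 over all genes. Abcd2 at 2.14 and 1.63 lies far to the right in both genotype panels, Nudt7 far to the left at -1.02 and -1.28 in the panels of unfasted genotypes and of fasting in heterozygotes, and 4 peroxins are filled on the right in the last panel.

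Promoters were read for genes whose response stood out, to show the sequence in front of Ehhadh and Nudt7, which moved most among the enzymes with fasting in heterozygotes, and of Pex3 and Pex10, which rose with fasting in mutants. RefSeq sequences (GRCm38.p6) from 250 bases before to 50 after the start were at hand for 27 of the 34 genes. Below are the 120 bases before an annotated start of transcription, 5′ to 3′ on the gene's strand, with each CG dinucleotide in capitals. The stretches are chr16:21787835-21787954 (minus strand) for Ehhadh, chr8:114133454-114133573 (plus) for Nudt7, chr10:13553143-13553262 (minus) for Pex3 and chr4:155066910-155067029 (plus) for Pex10. Nudt7 has 2 starts in the table, and its stretch precedes the upstream one.
Ehhadh: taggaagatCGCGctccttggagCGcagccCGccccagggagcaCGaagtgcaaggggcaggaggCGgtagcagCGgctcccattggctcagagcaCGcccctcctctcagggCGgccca
Nudt7: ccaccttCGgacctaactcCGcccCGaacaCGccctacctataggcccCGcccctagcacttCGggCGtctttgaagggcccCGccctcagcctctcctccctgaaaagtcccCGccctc
Pex3: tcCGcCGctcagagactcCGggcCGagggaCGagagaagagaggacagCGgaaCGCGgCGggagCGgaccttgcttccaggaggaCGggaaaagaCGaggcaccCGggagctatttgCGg
Pex10: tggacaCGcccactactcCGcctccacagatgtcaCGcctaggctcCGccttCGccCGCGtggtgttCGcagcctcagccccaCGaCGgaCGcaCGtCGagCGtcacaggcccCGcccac
These stretches hold 9, 9, 14 and 15 CG dinucleotides. The whole windows of Pex3 and Pex10 held 28 and 29. Pex16 also rose with fasting in mutants and is not shown, and its windows at 2 starts held 10 and 13. Pex19, which rose there too, had no sequence at hand. Over the whole windows the median count per gene was 19 in 11 peroxins and 14.25 in 14 enzymes, beside 15 over 19177 promoters of named genes. The PPAR-alpha element, a direct repeat of AGGTCA with 1 free base between the copies, searched on both strands, was in none of the 33 member windows and in 0.0417% of all windows. Its repeat unit, AGGTCA, was in the windows of Cat, Pex11g, Phyh and Scp2 and in 14.2% of all. No match says only that these letters are not in this window.

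Peroxisomal transporters of the Abcd family carry acyl-CoA esters into the organelle, and Abcd2 gave the largest change of the list. Abcd2 takes up very-long-chain and polyunsaturated acyl-CoAs and is normally scarce in liver compared with adipose tissue and brain. Its signal read 9.70, 9.94, 8.83 and 7.98 in unfasted heterozygotes and 9.74, 10.22, 8.17 and 9.54 in fasted ones. In mutants it read 11.23, 11.21, 11.43 and 11.15 unfasted and 11.14, 10.84, 11.05 and 11.14 fasted. All 8 mutant arrays lay above all 8 heterozygous arrays. The spread was wide in heterozygotes, with an SD of 0.89 unfasted and 0.88 fasted, and narrow in mutants, at 0.12 and 0.15. Abcd2 rose in mutants by 2.14 ± 0.39 unfasted (4.41-fold, 95% interval 1.31 to 2.98, limma adjusted p = 0.0044) and by 1.63 ± 0.39 fasted (3.09-fold, adjusted p = 0.013). Fasting moved it by 0.30 ± 0.39 in heterozygotes and -0.21 ± 0.39 in mutants, neither called, although the 4 fasted mutant arrays lay below the 4 unfasted ones. Abcd2 is abundant in fat cells, and the adipocyte markers Adipoq, Lep, Plin1 and Retn differed by 0.075 ± 0.11, 0.0023 ± 0.046, 0.061 ± 0.10 and -0.025 ± 0.18 between unfasted genotypes. Between fasted genotypes they differed by 0.22 ± 0.11, -0.066 ± 0.046, 0.11 ± 0.10 and -0.016 ± 0.18, and none was called in either. The part of fat cells in the Abcd2 signal was not tested.

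Abcd4, despite its family name, is known as a lysosomal exporter of cobalamin, the vitamin whose adenosyl form is the cofactor of methylmalonyl-CoA mutase. It read 8.16, 8.03, 8.05 and 7.97 in unfasted and 8.40, 8.37, 8.37 and 8.45 in fasted heterozygotes. The mutant values were 7.97, 7.95, 7.95 and 7.90 unfasted and 7.87, 7.99, 8.15 and 8.09 fasted. The fasted heterozygotes thus stood above every other array. Abcd4 rose by 0.35 ± 0.06 with fasting in heterozygotes (1.27-fold, adjusted p = 0.0092) and was 0.085 ± 0.06 apart in mutants, which was not called (adjusted p = 0.41). Between fasted genotypes it fell by 0.37 ± 0.06 in mutants (adjusted p = 0.0014), a comparison that uses the same fasted heterozygous arrays. The interaction was -0.26 ± 0.085 (95% interval -0.44 to -0.081, adjusted p = 0.37). Abcd3, the abundant PMP70 that carries branched-chain and dicarboxylic acyl-CoAs, differed by 0.067 ± 0.068 unfasted and 0.18 ± 0.068 fasted between genotypes and was not called in any comparison.

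**Figure D2:**
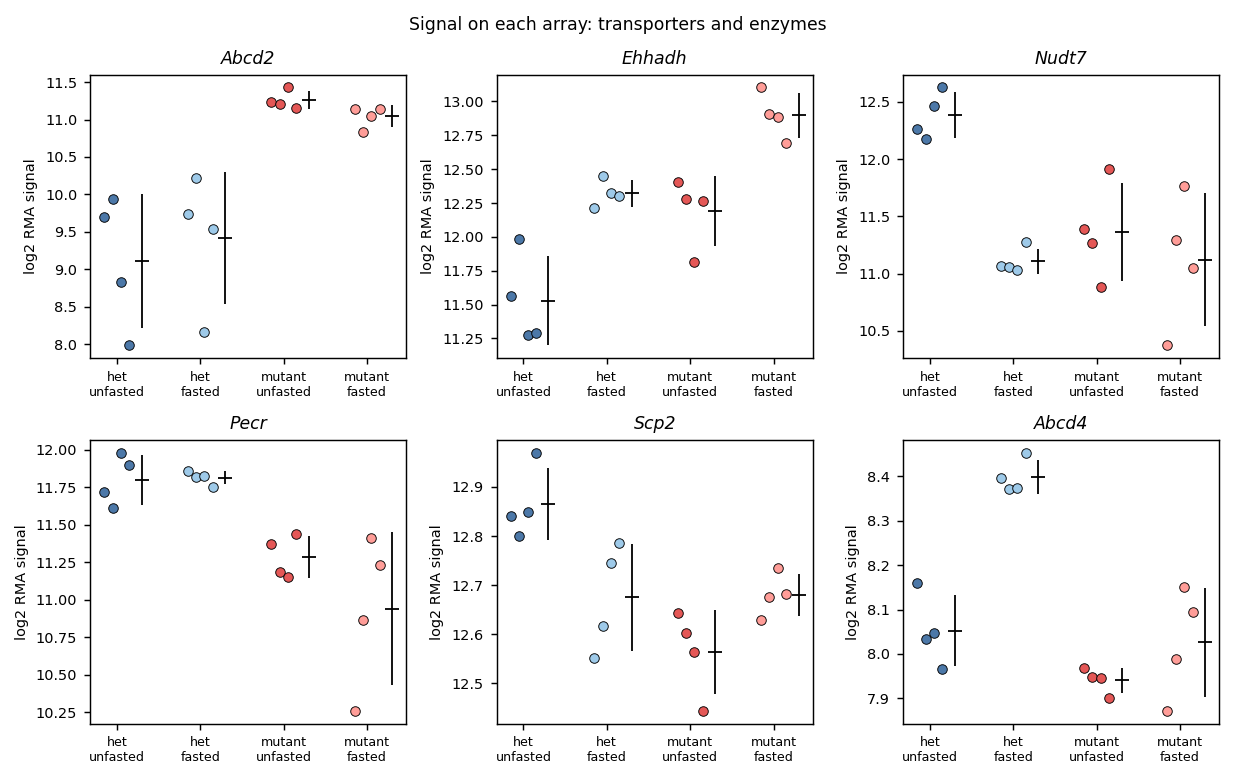
Log2 RMA signal (vertical axes, not starting at 0) of 2 transporters and 4 enzymes on each of the 16 arrays, by group; points are arrays in order of replicate and the bar beside them is the mean ± SD (n = 4). Abcd2 is high and tight in both mutant groups, Ehhadh climbs with fasting in both genotypes, and Nudt7 is high only in unfasted heterozygotes.

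Among the enzymes of the straight-chain pathway, Ehhadh was the one member called in all 4 pairwise comparisons. It encodes the L-bifunctional protein, which hydrates and dehydrogenates the acyl chain, and it is a classical PPAR-alpha target in rodents. Ehhadh read 11.56, 11.99, 11.28 and 11.29 in unfasted and 12.21, 12.45, 12.32 and 12.30 in fasted heterozygotes. In mutants the readings were 12.40, 12.28, 11.82 and 12.27 unfasted and 13.10, 12.90, 12.89 and 12.69 fasted. Unfasted mutants overlapped both heterozygous groups, and fasted mutants lay above all other arrays. Fasting raised Ehhadh by 0.79 ± 0.15 in heterozygotes (1.73-fold, adjusted p = 0.013) and by 0.70 ± 0.15 in mutants (1.63-fold, adjusted p = 0.019). The mutants were higher by 0.66 ± 0.15 unfasted (adjusted p = 0.013) and by 0.57 ± 0.15 fasted (adjusted p = 0.018). Its interaction was -0.089 ± 0.21, with a 95% interval from -0.53 to 0.35. Between unfasted genotypes the call was lost without unfasted heterozygous replicate 3 (adjusted p = 0.052) and when only the compared arrays were fitted (0.067). Between fasted genotypes it was lost without 1 of 2 arrays (up to 0.054). For fasting in mutants it was lost without fasted mutant replicate 2 (0.055) and when only the compared arrays were fitted (0.077).

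Of the other enzymes of the chain only Scp2 was called, in 1 comparison. Hsd17b4, the D-bifunctional protein, which takes branched and very-long chains, differed by 0.023 ± 0.056 and 0.031 ± 0.056 between genotypes. It was 0.19 ± 0.056 and 0.20 ± 0.056 higher after fasting in heterozygotes and mutants, with no overlap of arrays in either, and was not called (adjusted p = 0.11 and 0.061). The thiolase genes Acaa1a and Acaa1b, which cleave the chain, are close copies, and their probes may share signal. Acaa1a was 0.30 ± 0.084 and Acaa1b 0.14 ± 0.10 higher after fasting in heterozygotes, and neither was called in any comparison. Scp2 encodes sterol carrier protein and a thiolase for branched chains. It read 12.84, 12.80, 12.85 and 12.97 in unfasted heterozygotes, 12.55, 12.62, 12.75 and 12.79 in fasted ones, 12.64, 12.60, 12.56 and 12.44 in unfasted mutants and 12.63, 12.68, 12.73 and 12.68 in fasted mutants. The 4 unfasted heterozygotes lay above the 12 other arrays, the nearest of which was a fasted heterozygote. In unfasted mutants Scp2 fell by 0.30 ± 0.06 (adjusted p = 0.0069) and differed by 0.0052 ± 0.06 between fasted genotypes. The interaction was 0.31 ± 0.085 and was not called (limma adjusted p = 0.315). With fasting in heterozygotes Scp2 differed by -0.19 ± 0.06, which was not called (adjusted p = 0.149).

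The largest falls were those of Nudt7, which encodes a peroxisomal diphosphatase that degrades coenzyme A and its esters. It read 12.27, 12.18, 12.47 and 12.63 in unfasted and 11.07, 11.06, 11.03 and 11.27 in fasted heterozygotes. Mutant arrays read 11.39, 11.27, 10.88 and 11.92 unfasted and 10.37, 11.29, 11.77 and 11.05 fasted. The 4 unfasted heterozygotes lay above the 12 other arrays, and the mutants were scattered, with an SD of 0.43 and 0.58. Fasting lowered Nudt7 in heterozygotes by 1.28 ± 0.24 (2.42-fold, adjusted p = 0.013), and unfasted mutants were lower than unfasted heterozygotes by 1.02 ± 0.24 (2.03-fold, adjusted p = 0.016). These comparisons share the unfasted heterozygous arrays. Fasted genotypes differed by 0.014 ± 0.24, and fasting in mutants gave -0.24 ± 0.24. The interaction was 1.03 ± 0.33 (95% interval 0.32 to 1.74, adjusted p = 0.37) and was not called. Nudt19, a related diphosphatase best known from kidney, stayed within -0.069 ± 0.12 to 0.0043 ± 0.12 in the 4 comparisons. The Nudt7 call between unfasted genotypes was lost without unfasted heterozygous replicate 3 or 4 or unfasted mutant replicate 3 (adjusted p up to 0.056).

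Pecr, a reductase of trans-2-enoyl-CoAs with a part in phytol breakdown, was lower in mutants. It read 11.72, 11.61, 11.98 and 11.89 in unfasted and 11.86, 11.82, 11.82 and 11.75 in fasted heterozygotes. The values were 11.37, 11.19, 11.15 and 11.44 in unfasted and 10.26, 10.87, 11.41 and 11.23 in fasted mutants. Each mutant array lay below each heterozygous array. The fall was 0.87 ± 0.18 in the fasted state (1.83-fold, adjusted p = 0.0051) and 0.64 without fasted mutant replicate 1, which held the adipocyte and kidney signals, and the gene stayed called. Its unfasted difference of -0.51 ± 0.18 was not called (adjusted p = 0.087). Decr2, the reductase for double bonds at even positions, was 0.25 ± 0.08 and 0.24 ± 0.08 higher after fasting in heterozygotes and mutants and not called. Crot, carnitine octanoyltransferase, which prepares shortened chains for export to mitochondria, read 12.71, 12.64, 12.56 and 12.78 in unfasted and 13.04, 13.06, 13.03 and 13.00 in fasted mutants. It rose there by 0.36 ± 0.08 (1.28-fold, adjusted p = 0.024), with no overlap, and by 0.21 ± 0.08 in heterozygotes, which was not called. Between fasted genotypes Crot was 0.24 ± 0.08 higher in mutants, with no overlap, and was not called (limma adjusted p = 0.06). In the fit of brighter genes alone it was called there. Removing 1 array ended the Crot call for fasting in mutants in 4 cases (adjusted p up to 0.07). A fit of only the compared arrays ended it too (0.056).

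Of the remaining branched-chain enzymes only Phyh was called, and only between fasted genotypes. Phyh, phytanoyl-CoA hydroxylase, which starts the alpha-oxidation of phytanic acid, was lower by 0.17 ± 0.053 in fasted mutants (adjusted p = 0.045), a call that ended in 10 of the 16 fits with 1 array removed (highest adjusted p 0.13). Hacl1, the lyase of the same pathway, differed by 0.14 ± 0.08 there. Acox2, the oxidase for bile acid intermediates and branched chains, was -0.28 ± 0.094 in fasted mutants (adjusted p = 0.055). It was called there with median-centred arrays, after a second quantile normalisation and in the fit of brighter genes alone. Acox3, a pristanoyl-CoA oxidase, and Amacr, the racemase that makes branched chains fit for oxidation, differed most between unfasted genotypes, by -0.15 ± 0.077 and -0.15 ± 0.09, and were not called. Catalase (Cat) varied less than any other member in unfasted heterozygotes, with an SD of 0.0265, and its 4 differences ran from -0.059 ± 0.041 to 0.0093 ± 0.041. In the membrane, Pxmp2, a channel protein, was -0.63 ± 0.24 and Pxmp4 -0.21 ± 0.11 in fasted mutants, neither called. Pxmp2 read 8.11 on fasted mutant replicate 1, which held the adipocyte and kidney signals, and 8.76 to 9.44 on the 3 others, and without that array its difference was -0.38 (adjusted p = 0.23).

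The peroxins moved by smaller steps. None of 13 was called for fasting in heterozygotes (2 at an unadjusted p under 0.05, limma), against 1.57% of all genes. With fasting in mutants 4 rose, against 2.33% of all genes called higher. The fit of brighter genes alone called 8.7% in either direction. The 4 peroxins were Pex3, Pex16 and Pex19, which together insert proteins into the peroxisomal membrane, and Pex10, a RING ubiquitin ligase that helps recycle the import receptor. Pex19, the cytosolic chaperone of that trio, read 10.94, 11.11, 11.03 and 10.80 in unfasted mutants and 11.43, 11.40, 11.32 and 11.35 in fasted mutants. In heterozygotes it read 10.94, 10.98, 11.00 and 10.71 unfasted and 11.00, 11.11, 11.11 and 11.15 fasted. Fasted mutants thus lay above the 12 other arrays. Pex3, the docking receptor for Pex19, read 10.15, 10.09, 9.92 and 9.77 in unfasted mutants and 10.30, 10.40, 10.51 and 10.32 in fasted mutants. The heterozygous values were 10.28, 10.32, 10.31 and 10.09 unfasted and 10.24, 10.31, 10.37 and 10.40 fasted. Fasted mutants overlapped fasted heterozygotes, and 3 of 4 unfasted mutants lay below every heterozygote. Pex16, which helps bring Pex3 to the membrane, read 10.99, 10.86, 10.75 and 10.79 in unfasted mutants and 11.10, 11.06, 11.19 and 11.40 in fasted mutants. It read 10.91, 10.76, 10.89 and 10.63 in unfasted and 10.82, 10.87, 10.90 and 11.08 in fasted heterozygotes, and the unfasted groups overlapped. Pex10 read 8.12, 8.20, 8.10 and 8.08 in unfasted mutants and 8.24, 8.48, 8.48 and 8.37 in fasted mutants, against 8.32, 8.26, 8.49 and 8.37 in unfasted and 8.27, 8.36, 8.25 and 8.36 in fasted heterozygotes. The unfasted mutants lay below the 12 other arrays. For all 4 genes each fasted mutant was above each unfasted one. With fasting in mutants Pex19 rose by 0.41 ± 0.076 (1.33-fold, adjusted p = 0.011), Pex3 by 0.40 ± 0.084 (adjusted p = 0.019), Pex16 by 0.34 ± 0.088 (adjusted p = 0.045) and Pex10 by 0.27 ± 0.065 (adjusted p = 0.034). In heterozygotes the same genes differed by 0.19 ± 0.076, 0.081 ± 0.084, 0.12 ± 0.088 and -0.051 ± 0.065. The interaction was 0.32 ± 0.12 for Pex3 and 0.32 ± 0.092 for Pex10 (adjusted p = 0.4 and 0.32), so that a difference between genotypes in the response was not called.

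Support for these 4 calls depended on the other groups. When only the 8 mutant arrays were fitted, 33 of all genes and none of the members were called (adjusted p of the 6 members called in the fit of all arrays up to 0.157). The median SD of a gene was 0.11 in unfasted and 0.086 in fasted mutants against 0.075 and 0.072 in heterozygotes. Leaving out fasted mutant replicate 2 left 1 member called for fasting in mutants (1.12% of all genes), replicate 3 of that group left 2 (1.86%), and unfasted mutant replicate 2 or 3 left 3 (1.44% and 2.62%). The Pex16 call ended in 11 of the 16 fits with 1 array removed (highest adjusted p 0.11), with the replicate number as a block and under 2 other scalings of the arrays. For Pex10 it ended in 6 such fits (up to 0.103) and after a second quantile normalisation, and for Pex3 in 2 (up to 0.057). Pex19 was called in every fit that left out 1 array. With the acinar-bearing unfasted mutant replicate 1 removed, 8 members rose: the same 4 peroxins and 4 enzymes, with Hsd17b4 and Decr2 added. The share of all genes called rose further, from 3.35% to 9.74%.

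**Figure D3:**
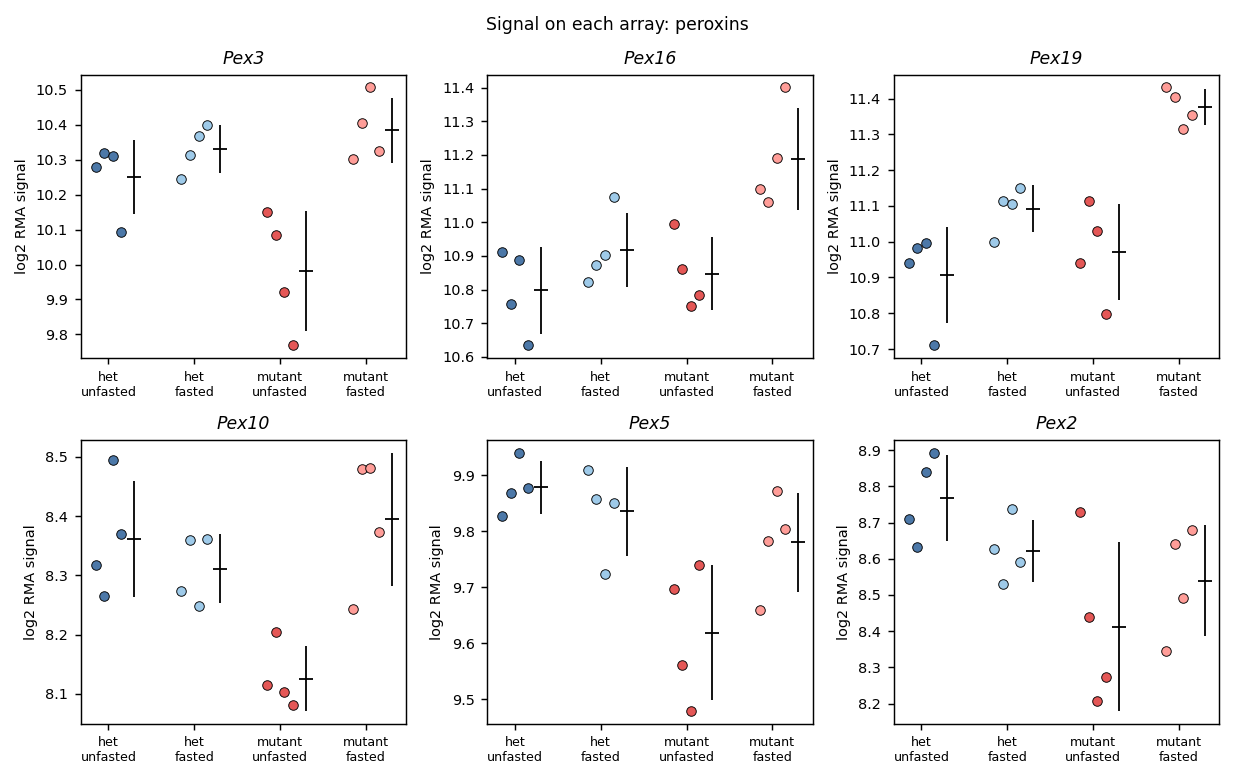
Log2 RMA signal (vertical axes, not starting at 0) of 6 peroxins on each of the 16 arrays, by group; points are arrays in order of replicate and the bar beside them is the mean ± SD (n = 4). Pex3, Pex16, Pex19 and Pex10 are higher in fasted than in unfasted mutants on all arrays, and Pex5 and Pex10 are lower in unfasted mutants than in any unfasted heterozygote.

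In unfasted mutants 3 of 13 peroxins, all of the import cycle, were called lower, against 3.69% of all genes. The fit of brighter genes alone called 15.8% in either direction. Pex5, the cytosolic receptor for the commonest targeting signal, read 9.83, 9.87, 9.94 and 9.88 in unfasted heterozygotes and 9.70, 9.56, 9.48 and 9.74 in unfasted mutants, with 9.91, 9.86, 9.72 and 9.85 in fasted heterozygotes and 9.66, 9.78, 9.87 and 9.80 in fasted mutants. It fell by 0.26 ± 0.069 (1.2-fold, adjusted p = 0.032), as did Pex10 by 0.24 ± 0.065 (adjusted p = 0.036), with no overlap of arrays for either. Pex2, the ligase partner of Pex10, read 8.71, 8.63, 8.84 and 8.89 in unfasted heterozygotes and 8.73, 8.44, 8.21 and 8.27 in unfasted mutants, with 8.63, 8.53, 8.74 and 8.59 in fasted heterozygotes and 8.34, 8.64, 8.49 and 8.68 in fasted mutants. The mutant range reached into that of the heterozygotes through replicate 1. Pex2 fell by 0.36 ± 0.10 (adjusted p = 0.049). The 3 calls were not stable: with 1 array removed they ended in 5, 5 and 13 of 16 fits for Pex5, Pex10 and Pex2 (highest adjusted p 0.105, 0.131 and 0.144), and they also ended in a fit of only these 8 arrays (up to 0.128). Of all 7 members called between unfasted genotypes, 2 were called without unfasted heterozygous replicate 3 (3.5% of all genes), and 3 without its replicate 4 (4.09%) or without unfasted mutant replicate 3 (5.18%). The share of all genes called thus fell in the same fits. Unfasted mutants supply the low readings both here and in the fasting comparison of mutants, so those results are not independent.

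Between fasted genotypes 3 of 13 peroxins were called (23.1%), against 13.6% of all genes. The fit of brighter genes alone called 22.5%, with Pex16 added. No peroxin was called in the interaction, against 0.01% of all genes. Pex19 was higher in mutants by 0.28 ± 0.076 (adjusted p = 0.022) and Pex14, part of the docking complex on the membrane, by 0.23 ± 0.065 (adjusted p = 0.03), with no overlap of arrays for either. Pex11g, one of the proteins that elongate and divide peroxisomes, read 8.90, 8.91, 8.85 and 8.995 in fasted heterozygotes and 8.41, 8.42, 8.77 and 8.82 in fasted mutants. Unfasted it read 8.93, 8.81, 9.13 and 8.97 in heterozygotes and 8.71, 8.76, 8.59 and 8.67 in mutants, and the genotypes did not overlap in either state. It fell by 0.31 ± 0.093 after the fast (adjusted p = 0.04), and its unfasted difference of -0.28 ± 0.093 was of like size but not called (adjusted p = 0.079). Pex11a, the division factor that PPAR-alpha induces in rodents, read 12.22, 12.15, 11.79 and 11.30 in unfasted heterozygotes and 12.14 to 12.37 in fasted ones. Its differences of 0.42 ± 0.17 between unfasted genotypes and 0.41 ± 0.17 with fasting in heterozygotes were not called. Pex14 lost its call when arrays were centred on a common median or normalised again by quantiles (adjusted p up to 0.1), and in 5 of the fits with 1 array removed (up to 0.083). Pex11g lost it in 7 of those fits (up to 0.13) and Pex19 in 3 (up to 0.066). With median-centred arrays 8 members were again called, 7 of them shared, and with Pex14 lost and Acox2 gained the split was 3 higher and 5 lower. The 8 calls fell to 3 without fasted heterozygous replicate 1, to 4 without fasted mutant replicate 1 or 2 and to 5 without fasted heterozygous replicate 3, while the share of all genes called fell to 9.49%, 9.65%, 7.9% and 9.98%.

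The other peroxins were not called in any comparison. Pex7, the receptor for the rarer targeting signal, differed between genotypes by -0.16 ± 0.085 unfasted and -0.14 ± 0.085 fasted. Pex13, the docking partner of Pex14, differed by -0.19 ± 0.071 and 0.02 ± 0.071. Pex6, an ATPase that pulls used receptors from the membrane, was -0.20 ± 0.075 and -0.18 ± 0.075 in mutants, and its membrane anchor Pex26 was 0.18 ± 0.15 and 0.056 ± 0.15. Pex6 did not overlap between the unfasted genotypes, as was the case for 9 of the 34 members, against 12% of all genes. Groups did not overlap for 12 members between fasted genotypes (23.7% of all genes), for 9 with fasting in heterozygotes (10.5%) and for 9 with fasting in mutants (10%).

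Set against each other, enzymes had the wider spread and peroxins the median farther from 0 in 3 of the 4 comparisons. For fasting in mutants the median difference was 0.16 over 13 peroxins and 0.072 over 16 enzymes, beside -0.015 over all genes. Without unfasted mutant replicate 1 these medians were 0.22, 0.13 and -0.028. For fasting in heterozygotes it was -0.019 over peroxins and 0.025 over enzymes, beside 0.0067. Between unfasted genotypes the medians were -0.19 for peroxins and -0.06 for enzymes, beside 0.0052, and between fasted genotypes 0.053 and 0.0095, beside -0.022. The last enzyme median turned negative with median-centred arrays. Over the 9969 brighter genes alone the medians were 0.052 for fasting in mutants and 0.0024 for fasting in heterozygotes. They were -0.0035 between unfasted and 0.046 between fasted genotypes. Between fasted genotypes the peroxin median thus lay close to that of the brighter genes, and the enzyme median lay below it. Peroxin differences stayed between -0.36 and 0.42 in all 4 pairwise comparisons, whereas enzymes ran from -1.28 to 0.79. The 3 transporters went separate ways, from -0.37 for Abcd4 to 2.14 for Abcd2. On single arrays the peroxin median, taken from each gene's mean in unfasted heterozygotes, was -0.038, -0.13, -0.26 and -0.14 in unfasted mutants. In fasted mutants it was -0.12, 0.12, 0.12 and 0.012, so replicate 1 of that group lay within the range of the unfasted mutants. Of the interaction terms, 10 of 13 were positive for peroxins and 8 of 16 for enzymes, with medians of 0.20 and 0.0039 (0.21 and 0.038 without unfasted mutant replicate 1), and neither class had a called gene. Over all genes 9113 of 19938 terms were positive, with a median of -0.014. The median over the brighter genes alone was 0.058.

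**Figure D4:**
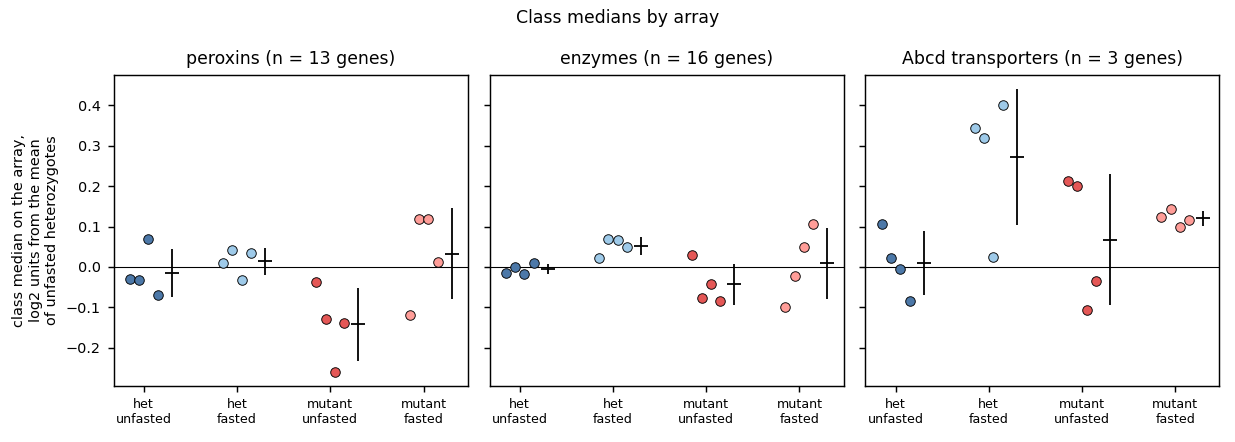
Median over the genes of a class on each array, in log2 units from each gene's mean in unfasted heterozygotes (vertical axis), by group (horizontal axis) for 13 peroxins, 16 enzymes and 3 Abcd transporters; points are arrays and bars the mean ± SD (n = 4). Unfasted mutants have the lowest peroxin mean at -0.14, enzyme medians stay between -0.098 and 0.11, and the transporter median of fasted heterozygotes is pulled down on replicate 3.

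Comparisons that share no array can be set side by side. Across the 34 genes the unfasted and fasted genotype differences had a Pearson correlation of 0.83 (Spearman 0.71) and the same sign in 27. The fasting differences of heterozygotes and mutants had a correlation of 0.52 (Spearman 0.36) and the same sign in 22. These are descriptions over genes, which are not independent replicates, and Abcd2 and Nudt7 lie at the ends of the ranges.

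**Figure D5:**
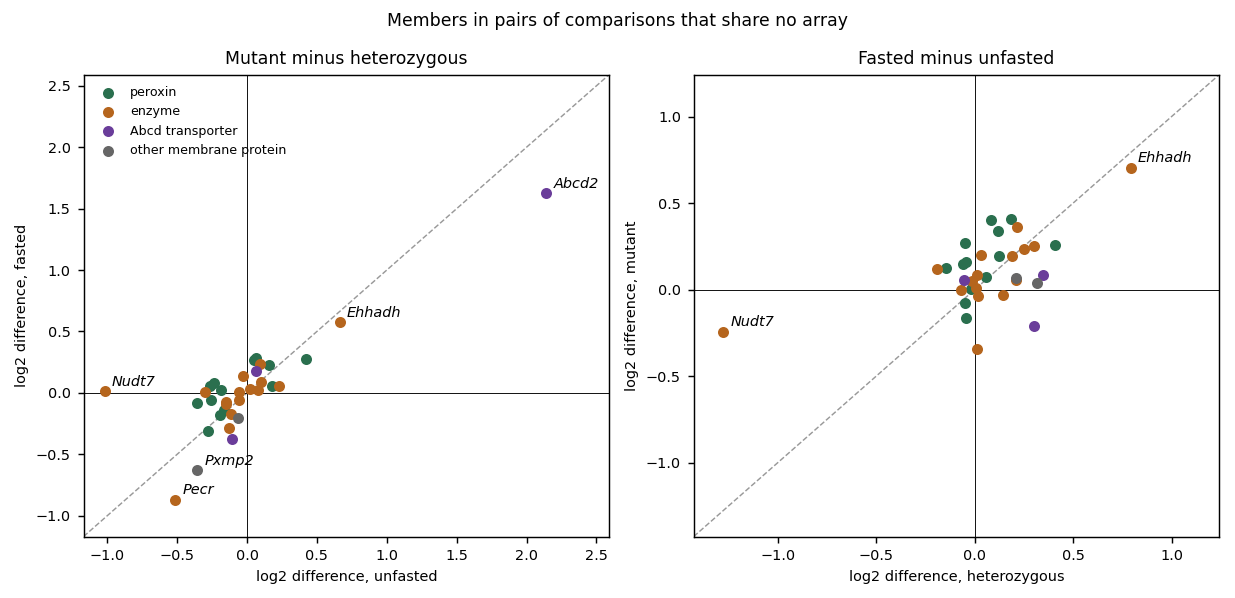
Log2 differences of the 34 genes in pairs of comparisons without shared arrays: mutant minus heterozygous in the unfasted (horizontal) and fasted state (vertical), left, and fasted minus unfasted in heterozygotes (horizontal) and mutants (vertical), right; the dashed line marks equality. Ehhadh lies near the line on the left, Abcd2 and Pecr share their sign in both states, and Nudt7 lies away from it in both panels, at -1.02 and 0.01 on the left.

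Other peroxisomal genes, from a list of 36 of which 33 were measured, behaved as a mixture. Between unfasted genotypes 1 rose and 6 fell: Hao1, glycolate oxidase, fell by 1.06 ± 0.19 (adjusted p = 0.004), the ATP carrier Slc25a17 by 0.51 ± 0.10, the glutathione transferase Gstk1 by 0.50 ± 0.10 and Baat, which conjugates bile acids, by 0.41 ± 0.12. In the fasted state 4 rose and 6 fell. Baat fell by 0.77 ± 0.12 (adjusted p = 0.0011), Hao1 by 0.71 ± 0.19 and Pipox, which oxidises pipecolic acid and sarcosine, by 0.57 ± 0.13, and Far1, which makes fatty alcohols for ether lipids, rose by 0.46 ± 0.081. Fasting raised 5 and lowered 1 in heterozygotes, with Crat, carnitine acetyltransferase, at 0.69 ± 0.15 and the thioesterase gene Acot8 at 0.43 ± 0.068. It raised 2 and lowered 2 in mutants, where Pmvk of mevalonate metabolism fell by 0.93 ± 0.18 and Acot8 rose by 0.30 ± 0.068. The list medians were -0.037, -0.0002, 0.049 and 0.098 in these 4 comparisons, beside medians over all genes between -0.022 and 0.0067. Medians over the brighter genes alone ran from -0.0035 to 0.052. Over all genes, 4.25%, 8.62%, 0.732% and 2.33% were called higher and 3.69%, 5.01%, 0.838% and 1.02% lower. The fits of brighter genes alone called 15.8%, 22.5%, 3.98% and 8.7% in either direction. Of 4 division genes shared with mitochondria only Mff, an anchor for the dynamin Dnm1l, was called, higher by 0.34 ± 0.079 with fasting in mutants.

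PPAR-alpha targets outside the peroxisome were called in 1 direction only. Of 21 measured, 9 were called higher between unfasted genotypes, 6 between fasted genotypes, 7 with fasting in heterozygotes and 5 in mutants. Of all genes 4.25%, 8.62%, 0.732% and 2.33% were called higher in the same order. In the fits of the 9969 brighter genes alone, 774, 1566, 182 and 691 genes were called higher. Not every target went this way. Uncalled Cyp4a12a read 12.68 to 12.86 in unfasted heterozygotes and 11.18 to 12.52 in unfasted mutants. Creb3l3 read 10.82 to 10.94 and 10.46 to 10.80 in these groups and was not called lower. Pdk4, a brake on pyruvate oxidation, rose by 2.17 ± 0.39 in unfasted mutants and the thioesterase gene Acot2 by 1.93 ± 0.30, and Angptl4, a lipase inhibitor, rose by 1.08 ± 0.18 with fasting in heterozygotes. The list medians were 0.46, 0.19, 0.46 and 0.32, beside -0.0035, 0.046, 0.0024 and 0.052 over the brighter genes alone. Ppara itself differed by no more than 0.15 ± 0.12 in any of the 4 comparisons and was not called. Of 8 regulators measured, 2 were called higher between fasted genotypes, against 8.62% of all genes. The fit of brighter genes alone called 22.5% there in either direction. The receptor gene Pparg read 9.43 to 9.85 in fasted heterozygotes and 10.50 to 10.61 in fasted mutants. Unfasted it read 9.61 to 10.55 in heterozygotes and 10.34 to 10.59 in mutants. The coactivator gene Ppargc1a rose by 1.33 ± 0.26 with fasting in mutants (adjusted p = 0.015) and by 0.98 ± 0.26 between fasted genotypes. Its 0.68 ± 0.26 with fasting in heterozygotes was not called. A link of these regulators to the members was not tested.

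Markers of other liver cells moved with genotype. Of 8 endothelial markers 5 rose in unfasted and 6 in fasted mutants, of 8 macrophage markers none and 7, and of 8 stellate cell markers 6 and 2. Of all genes 7.94% and 13.6% were called in these comparisons (4.25% and 8.62% higher). The fits of brighter genes alone called 15.8% and 22.5%. The summed macrophage signal ran from 11.90 to 12.52 on heterozygous arrays, from 12.16 to 12.92 in unfasted and from 12.77 to 13.20 in fasted mutants. For endothelial markers the ranges were 12.68 to 13.06, 13.14 to 13.45 and 13.22 to 13.43. Stellate cell markers summed to 12.78 to 12.98 in heterozygotes, 13.14 to 13.41 in unfasted and 12.99 to 13.25 in fasted mutants. None of these 24 markers was called with fasting in mutants, against 3.35% of all genes. Of 4 cholangiocyte markers, Sox9 fell by 0.62 ± 0.12 between fasted genotypes (adjusted p = 0.005) and Krt7 by 0.32 ± 0.072 with fasting in mutants (adjusted p = 0.025). Their summed signal ran from 9.33 to 9.70 in heterozygotes, from 9.28 to 9.78 in unfasted and from 9.12 to 9.32 in fasted mutants. The part of these cells in the differences of the 34 members was not tested.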

How the data were processed

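Liver RNA was measured on 16 one-colour arrays, and the authors deposited log2 values made with the robust multi-array average (RMA) in Affymetrix Expression Console, per the submitters' processing notes. The log2 scale was read from the values, which run from 3.80 to 14.33 with array medians of 7.34 to 7.40. RMA normalises by quantiles, so a change of total RNA cannot be seen. Software versions and the library file are not given in the sources used here. Of 35556 probe sets, 21789 had 1 gene symbol, 1621 several and 12146 none listed; the first were used, and for a gene with several the brightest probe set, which left 19938 genes. Groups came from the labels, 4 arrays each.

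Differences were tested with limma 3.58.1 (R 4.3.3; group means, eBayes with an intensity trend, two-sided, Benjamini-Hochberg over all genes), tested on simulated data first. No array pair was identical, and the labels name 1 liver per array. Values per array are given for called members up to the 6 largest per comparison, and the rest by difference or count. The members and lists were chosen with earlier results of these data known. Alternatives were a replicate block, fits of the compared arrays only, other scalings, brightness filters, a stricter threshold and leaving out each array. The number of arrays limits the precision.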

Additional observations from a re-analysis of the deposited data

Results flagged for a closer look

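In 6 of 136 sets of 4 arrays (34 genes in 4 groups), 1 array lay far from the other 3 by Dixon's test, where chance gives about 1 in 20. Among unfasted heterozygotes, Pex7 read 10.67 on replicate 3 against 10.41 to 10.42, Pex26 read 8.46 on replicate 1 against 7.64 to 7.66, Acox3 read 9.35 on replicate 4 against 9.26 to 9.27, and Cat read 13.29 on replicate 2 against 13.24 on the others. Pex11a read 11.80 on unfasted mutant replicate 4 against 12.40 to 12.52. Nudt7 read 11.27 on fasted heterozygous replicate 4 against 11.03 to 11.07, which is still below every unfasted heterozygote.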

How the results depend on the processing

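In no setting did a called member change direction. With only the compared arrays in the fit, 4 members were called between unfasted genotypes, 9 between fasted genotypes, 4 for fasting in heterozygotes and 0 for fasting in mutants, against 3.83%, 15.2%, 2.85% and 0.166% of all genes. Between unfasted genotypes Pex2, Pex5, Pex10 and Ehhadh were lost and Pecr gained. At an adjusted p under 0.01 the counts were 2, 2, 1 and 0 in that order, against 2.31%, 4.98%, 0.366% and 0.396% of all genes. Leaving out 1 array at a time gave 2 to 8, 3 to 10, 3 to 4 and 1 to 8 members, against 3.5% to 8.93%, 7.9% to 15.9%, 0.777% to 1.8% and 1.12% to 9.74% of all genes, and 0 members for the interaction. With the replicate number as a block the counts were 6, 8, 3, 5 and 0, and Pex2 and Pex16 lost their calls. Arrays of 1 number correlated by -0.12 to 0.252 in their deviations from the group means, so the numbers were not taken as pairs. In the fasted genotype comparison, 3 of 8 calls were higher with median-centred arrays and 6 of 11 after a second quantile normalisation, against 4 of 8. Of the single-gene values under all alternatives, 3604 kept direction and side of the threshold, 98 lost a call and 41 gained one. The other 133 changed sign and were called neither in the main fit nor in the alternative. The cause of these changes was not tested.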

Other observations

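Unfasted heterozygotes differed among themselves in PPAR-alpha targets. Replicate 4 was the lowest of the group for Abcd2, at 7.98 against 8.83 to 9.94, and for Pex11a, at 11.30 against 11.79 to 12.22. The summed signal of the 21 targets outside the peroxisome was 16.200, 16.285, 16.005 and 15.689 in this group, and 16.396 to 16.523 in fasted heterozygotes.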
